A study of Mus musculus with 6 samples.

Results

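A set of 9 genes that move iron or build and break down heme was followed in subcutaneous inguinal white fat (iWAT) of Hlx transgenic mice. They are *Trf* and *Tfrc* (iron delivery and uptake), *Fth1* (storage), *Slc40a1* (export), *Alas1*, *Urod*, *Cpox* and *Fech* (heme synthesis) and *Hmox1* (heme breakdown). They were chosen by name, with earlier results of these data known. Each of the 9 was found once among the 19445 gene rows of the expression table, at a locus that carries no other gene symbol. The series compares 3 transgenic mice with 3 wild-type littermates, all 12 weeks old, with 1 RNA-Seq library per sample. The transgene places an *Hlx* cDNA behind the *aP2* (*Fabp4*) promoter, which is active in fat, and it was introduced into embryos of C57BL/6 × SJL hybrids whose lines were then backcrossed to C57BL/6. The wild-type littermates carry no transgene, and the labels name no treatment of either genotype. Each numbered sample was taken as 1 mouse, which the labels do not state in so many words, so the p-values rest on the spread between these samples. Those of limma also draw on a variance trend fitted over all tested loci. Whether the transgenic mice came from a single founder is not given in the sources used here.

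Iron travels in plasma bound to transferrin and enters most cells when transferrin binds its receptor and is taken in with it. Inside the cell, iron is stored in the shell of ferritin, leaves through ferroportin, or goes to mitochondria, where heme and iron-sulfur clusters are made. Heme synthesis starts and ends in mitochondria, its products fill the cytochromes of the respiratory chain, and brown adipocytes hold many more mitochondria than white adipocytes.

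Expression is given as FPKM, the density of reads on a gene scaled by transcript length and by the mapped reads of the library, so FPKM levels of different genes can be set side by side per length. The FPKM of a sample summed to between 466059 and 542096. The absolute depth is unknown, and the relative depth, taken from the spacing of the lowest FPKM values, ran from 0.693 in transgenic replicate 3 to 1.41 in wild-type replicate 2. *Hlx* was at 96.2 ± 15.3 FPKM in transgenic iWAT, against 7.45 ± 0.637 FPKM in the controls (SD, n = 3 each), and every transgenic value was above every control. The adipocyte markers *Adipoq*, *Plin1*, *Fabp4*, *Cidec* and *Lipe* summed to between 23843 and 33318 FPKM per sample. The labels give male mice, but *Xist* lay between 20.2 and 33.6 FPKM in all 6 samples and each of the 28 Y-linked loci was at 0. Both genotypes shared this *Xist* signal, and these values go against the male label. Samples are grouped by genotype as labelled.

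Of the 9 genes, *Tfrc*, *Slc40a1*, *Alas1* and *Fech* were higher in transgenic iWAT, *Trf* was lower, and *Fth1*, *Urod*, *Cpox* and *Hmox1* passed the threshold in neither direction (limma on log2(FPKM + 1), adjusted p under 0.05 over 11692 loci). For comparison, 11.6% of all tested loci were called higher, 7.03% were called lower and 18.6% were called in either direction. At an unadjusted p under 0.05, limma put 2267 of the 11692 higher and 1963 lower. The genotypes did not overlap for 7 of the 9 genes, against 42.9% of all tested loci. The median log2 fold change of the 9 genes was 0.45, beside -0.01 for all tested loci. Log2 fold changes below are transgenic minus wild type on the log2(FPKM + 1) scale, on which changes of low genes come out smaller than they are. Log2 ratios between genes are differences of their log2(FPKM + 1) within a mouse, so they also differ from ratios of the printed FPKM. With 3 samples against 3, the exact permutation test, two-sided, gives a p of 0.1 at the least.

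**Figure D1:**
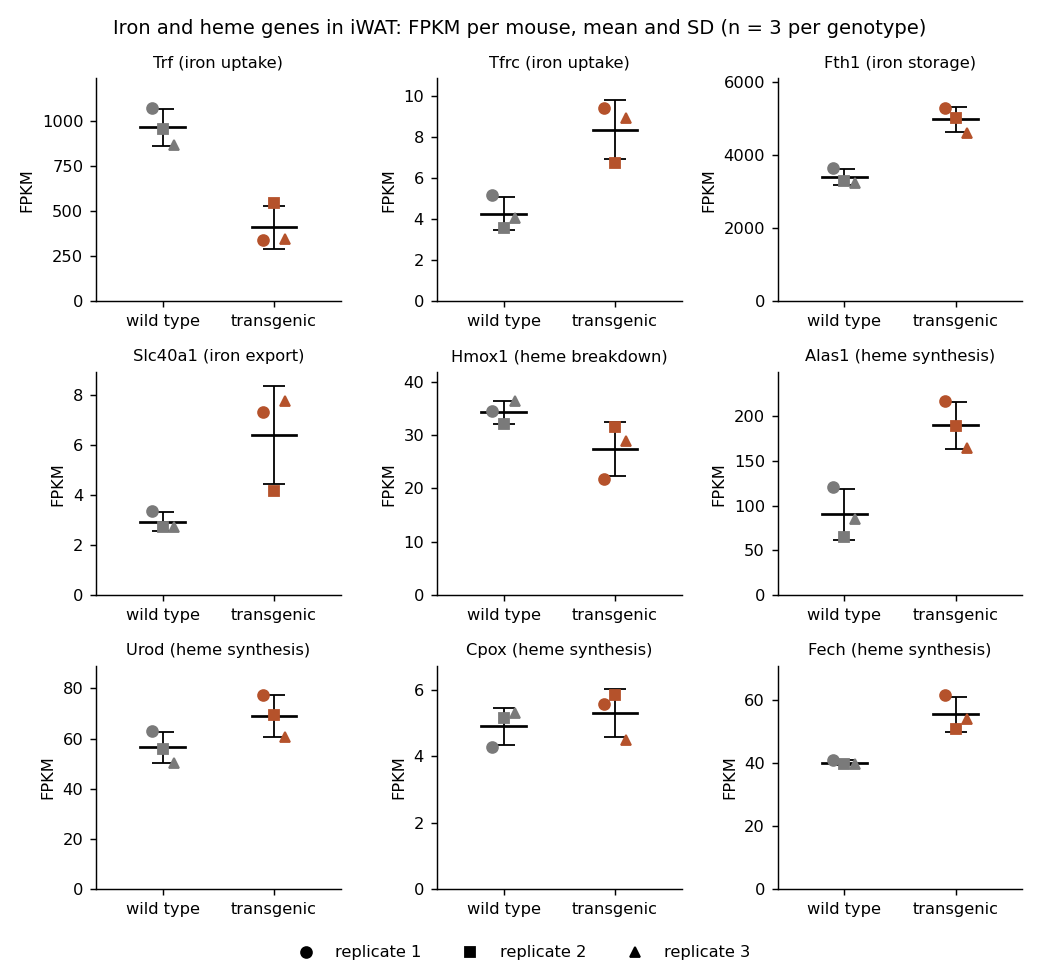
FPKM of each of the 9 genes in each mouse (vertical axes from 0, in FPKM), with the genotype mean as a line and the SD as bars (n = 3 each). *Trf* and *Hmox1* have every transgenic value below every wild-type value, *Tfrc*, *Fth1*, *Slc40a1*, *Alas1* and *Fech* have every transgenic value above, and *Urod* and *Cpox* overlap.

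*Trf*, *Tfrc*, *Fth1* and *Slc40a1* belong to the side of the pathway that handles iron itself. The messages of *Tfrc*, *Fth1* and *Slc40a1* carry the iron-responsive element (IRE), a hairpin bound by the iron regulatory proteins when iron is scarce. In a 5′ UTR the bound hairpin blocks translation, as known for ferritin and ferroportin, and in the 3′ UTR of *Tfrc* it protects the message from decay. They are shown because they are the known control sites of these messages and differ in their place in the message. They were read from GENCODE transcripts of GRCm38 (mm10) as a bulged C, a stem of 5 base pairs and a loop of 6 bases that begins with CAGTG, in the UTRs of the gene. Loop bases are in capitals, and each window of 27 bases is written 5′ to 3′ on the gene's strand, with all *Slc40a1* letters from the minus strand and the others from the plus strand.
Fth1 5′ UTR, chr19:9982733-9982759: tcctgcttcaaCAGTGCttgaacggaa
Slc40a1 5′ UTR, chr1:45925466-45925492: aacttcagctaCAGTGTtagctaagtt
Tfrc 3′ UTR, chr16:32631220-32631246: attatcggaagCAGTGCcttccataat
Tfrc 3′ UTR, chr16:32631599-32631625: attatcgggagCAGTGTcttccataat
Tfrc 3′ UTR, chr16:32631664-32631690: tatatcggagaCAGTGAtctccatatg
Tfrc 3′ UTR, chr16:32631711-32631737: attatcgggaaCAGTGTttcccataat

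By this pattern 123 of 21877 genes, or 0.562%, had a match in a UTR, and 3 of the 9 genes did. *Tfrc* had 4 matches, all in its 3′ UTR, and *Fth1* and *Slc40a1* had 1 each, in the 5′ UTR. Among the 77 genes of the wider iron and heme lists described below, 6 had a match, the other 3 being *Alas2*, *Bola3* and *Ftl1*. A match describes the letters only, and the pattern does not find every known form of the element.

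*Trf* encodes transferrin, the plasma carrier of iron, which fat makes as a secreted protein. It lies on chr9:103208876-103230286. The transgenic mice had 340.0, 548 and 344 FPKM and the wild-type mice had 1077, 956 and 871 FPKM. All transgenic values were below all wild-type values, and transgenic replicate 2 lay nearest to the controls. The means were 411 ± 119 and 968 ± 103 FPKM (SD, n = 3 each), a ratio of 0.424. The log2 fold change was -1.27 (standard error (SE) 0.21, 95% interval -1.76 to -0.78, limma adjusted p = 0.00843, exact permutation p = 0.1). *Trf* was the only one of the 9 genes that kept its call under all 14 alternatives (8 other settings and each of the 6 mice left out in turn), where its adjusted p ran from 0.0030 to 0.036.

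*Tfrc* encodes the transferrin receptor, which brings transferrin-bound iron into the cell, and lies on chr16:32608896-32632794. Its level was 9.45, 6.72 and 8.93 FPKM in the transgenic mice and 5.19, 3.60 and 4.06 FPKM in the wild-type mice. Again the genotypes did not overlap, and transgenic replicate 2 was again the nearest to the wild-type values. Mean *Tfrc* was 8.36 ± 1.45 against 4.28 ± 0.818 FPKM (SD, n = 3 each), 1.95 times as high in transgenic iWAT. Its log2 fold change was 0.83 (SE 0.16, 95% interval 0.46 to 1.19, limma adjusted p = 0.0135, exact permutation p = 0.1). The adjusted p was 0.053 without transgenic replicate 3 and 0.0516 without wild-type replicate 3, and the call held in the other 12 alternatives.

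*Trf* fell and *Tfrc* rose in the same mice. Within each mouse, the log2 ratio of *Tfrc* to *Trf* was -5.03, -6.15 and -5.12 in transgenic mice, against -7.45, -7.70 and -7.43 in wild-type mice. The difference was 2.09 (two-sided exact permutation p = 0.1, or 0.133 adjusted over the 4 ratios compared), and it ran from 1.89 to 2.45 with each mouse left out in turn.

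*Slc40a1* encodes ferroportin, the exporter of iron from cells, which is abundant in macrophages that recycle iron. It lies on chr1:45908070-45925594. *Slc40a1* had 7.30, 4.15 and 7.74 FPKM in the transgenic mice and 3.36, 2.71 and 2.72 FPKM in the wild-type mice. No values overlapped, but transgenic replicate 2 stood much closer to the controls than to the other transgenic mice. The mean was 6.40 ± 1.96 against 2.93 ± 0.374 FPKM (SD, n = 3 each), 2.18 times as high. The log2 fold change was 0.88 (SE 0.21, 95% interval 0.39 to 1.36, limma adjusted p = 0.0288, exact permutation p = 0.1). This call was lost in 6 of the 14 alternatives, against 0 to 3 for the other called genes. Without transgenic replicate 2 the log2 fold change was 1.12 (adjusted p = 0.00382), without any 1 of the other 5 mice the adjusted p rose to between 0.0529 and 0.0917, and without the filter on low values it was 0.0567.

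Transgenic replicate 2 was the transgenic sample nearest to the controls for *Trf*, *Tfrc*, *Slc40a1*, *Fech* and *Hmox1*. It also had the most skeletal muscle RNA, with a summed 494 FPKM over 7 muscle loci, against 65.4 and 94.4 FPKM in the other transgenic mice and 5.40 to 95.7 FPKM in the wild-type mice. Among the transgenic mice, this replicate also had the lowest *Hlx*, at 79.6 FPKM against 110 and 99.5 FPKM. Its summed brown adipocyte markers were the lowest (3058 FPKM, against 4306 and 3267 FPKM). Its summed macrophage markers were the highest (523 FPKM, against 369 and 399 FPKM). The part of any of these differences in the 5 genes was not tested. Without this replicate their log2 fold changes were further from 0, at -1.49, 0.96, 1.12, 0.51 and -0.43. That direction was fixed in advance, as these are the genes for which this replicate lay nearest to the controls.

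*Fth1* encodes the heavy chain of ferritin, the subunit that oxidizes iron for storage, and lies on chr19:9982703-9985092. It was the most abundant of the 9 messages, at 5291, 5008 and 4596 FPKM in the transgenic mice and 3650.2, 3279 and 3238 FPKM in the wild-type mice. Every transgenic value was above every wild-type value. Mean *Fth1* was 4965 ± 349 against 3389 ± 227 FPKM (SD, n = 3 each), a ratio of 1.46. The difference did not pass the threshold, with a log2 fold change of 0.55 (SE 0.17, 95% interval 0.14 to 0.96, limma adjusted p = 0.0689, exact permutation p = 0.1). Under a variance model without a trend on expression level the adjusted p was 0.0106, and without the filter on low values it was 0.431. Processed pseudogenes of *Fth1* are annotated in the genome, so how the upstream counting shared reads among these copies could move its level. *Ftl1*, the light chain, was at 1024 ± 111 FPKM in transgenic mice, against 942 ± 128 FPKM in the controls (SD, n = 3 each; log2 fold change 0.12, limma adjusted p = 0.599).

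The log2 ratio of *Tfrc* to *Fth1*, a message for uptake against one for storage, differed by 0.28 between the genotypes (exact permutation p = 0.3, adjusted p = 0.3). It was -9.06 ± 0.252 in transgenic and -9.34 ± 0.137 in wild-type mice (SD, n = 3 each). Here the values of the genotypes overlapped. With a pseudocount of 0.1 in place of 1 the difference was 0.40 (exact permutation p = 0.2). A difference in size between the changes of *Tfrc* and *Fth1* was not detectable with this number of mice.

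The remaining enzymes build or break down heme. The first step, which joins glycine and succinyl-CoA and sets the pace of the pathway, is made by *Alas1* in most tissues and by *Alas2* in developing red cells. *Alas1* lies on chr9:106233455-106247954. Its level was 217, 189 and 164 FPKM in the transgenic mice and 121, 65.3 and 84.7 FPKM in the wild-type mice. The lowest transgenic value was above the highest wild-type value, and both genotypes had a wide spread. Mean *Alas1* was 190.2 ± 26.3 against 90.4 ± 28.5 FPKM (SD, n = 3 each), 2.1 times as high. The log2 fold change was 1.10 (SE 0.22, 95% interval 0.57 to 1.63, limma adjusted p = 0.0177, exact permutation p = 0.1). The adjusted p was 0.0552 without transgenic replicate 1 and 0.0625 without wild-type replicate 3.

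*Alas1* is a known target of NRF-1, a transcription factor for nuclear genes of mitochondria. Of the 9 genes, *Alas1*, *Urod*, *Tfrc*, *Cpox* and *Fth1* had a RefSeq promoter window (GRCm38.p6, 250 bases before to 50 after the start). The NRF-1 motif GCGCNTGCGC, searched on both strands, was in 4.60% of 32851 such windows and, among these 5 genes, in *Alas1* alone. Both sites are shown as they stand on the minus strand, with the motif in capitals. The motif of the upstream site begins at the first transcribed base and that of the other 29 bases after it. Measured from another RefSeq start of *Alas1*, further into the gene, they lie 224 and 195 bases upstream.
Alas1 upstream site, chr9:106247940-106247959: ggcgcGCGCGTGCGCgcggc
Alas1 downstream site, chr9:106247911-106247930: ccaagGCGCATGCGCggcgg

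The element of estrogen-related receptors, AAGGTCA, and the antioxidant response element, TGACNNNGC, also searched on both strands, were in 4.72% and 12.4% of all windows and in 0 of these 5. A GC box (GGGCGG) was in 4 of the 5, all but *Cpox*, and in 35.7% of all windows. The GC box of *Alas1* did not overlap its NRF-1 motifs. The CCAAT box was in *Tfrc*, *Fth1* and *Urod* and in 37.4% of all windows. A motif match is a description of the letters in this window and says nothing of binding in these mice.

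After the first step the differences were smaller. *Fech*, the last enzyme, which inserts iron into protoporphyrin inside mitochondria, lies on chr18:64456550-64489066. *Fech* had 61.4, 50.7 and 53.9 FPKM in the transgenic mice and 40.8, 39.5 and 39.7 FPKM in the wild-type mice. The wild-type values lay close together, and all transgenic values were above them. Mean *Fech* was 55.3 ± 5.51 against 40.0 ± 0.722 FPKM (SD, n = 3 each), a ratio of 1.38. The log2 fold change was 0.45 (SE 0.09, 95% interval 0.24 to 0.67, limma adjusted p = 0.0162, exact permutation p = 0.1). Its adjusted p was 0.0523 without transgenic replicate 3, 0.0568 without wild-type replicate 2 and 0.0562 without wild-type replicate 3.

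*Urod*, which trims the side chains of uroporphyrinogen in the cytosol, lies on chr4:116990217-116994375. It was at 77.3, 69.5 and 60.6 FPKM in the transgenic mice and at 63.0, 56.0 and 50.4 FPKM in the wild-type mice. The lowest transgenic value fell below the highest wild-type value. The means were 69.1 ± 8.40 and 56.5 ± 6.35 FPKM (SD, n = 3 each), with a log2 fold change of 0.29 (95% interval -0.0037 to 0.58, limma adjusted p = 0.142, exact permutation p = 0.2).

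*Cpox*, which makes protoporphyrinogen in the space between the mitochondrial membranes, lies on chr16:58670208-58686854. Its level was low, at 5.60, 5.85 and 4.50 FPKM in the transgenic mice and 4.28, 5.15 and 5.32 FPKM in the wild-type mice. The genotypes were interleaved, and transgenic replicate 3 was below 2 of the controls. *Cpox* averaged 5.32 ± 0.716 and 4.91 ± 0.559 FPKM (SD, n = 3 each), with a log2 fold change of 0.09 (95% interval -0.19 to 0.38, limma adjusted p = 0.607, exact permutation p = 0.5). *Urod* and *Cpox* were called under 0 of the 14 alternatives, and their intervals still allow a rise of 0.58 and of 0.38 on the log2 scale.

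Beside these, *Alas2*, *Alad*, *Uros* and *Ppox* of heme synthesis were read. *Alas2* had 9.29, 6.58 and 9.19 FPKM in the transgenic mice and 4.04, 4.53 and 2.72 FPKM in the wild-type mice, a log2 fold change of 0.98 (SE 0.18, limma adjusted p = 0.0133). Its locus carries 3 gene symbols, so reads of neighboring genes may be among its values, and its level per length was far below that of *Alas1*. *Uros*, *Ppox* and *Alad* had log2 fold changes of 0.36, 0.28 and 0.14 and limma adjusted p of 0.0786, 0.0626 and 0.823. *Alad*, the enzyme of the step after *Alas1*, ranged from 37.9 to 112 FPKM over the 6 mice, and its log2 fold change ran from -0.23 to 0.45 over the alternatives. Of the 8 heme synthesis genes read, 3 were called higher (*Alas1*, *Alas2* and *Fech*) and 0 lower, beside 11.6% and 7.03% of all tested loci. The median log2 fold change was 0.32. All 8 values were above 0, as were 5663 of the 11692 tested loci. At an unadjusted p under 0.05, limma put 5 of the 8 higher and 0 lower, beside 2267 and 1963 of all tested loci. Only 1 enzyme was called without transgenic replicate 3 or without wild-type replicate 3.

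**Figure D2:**
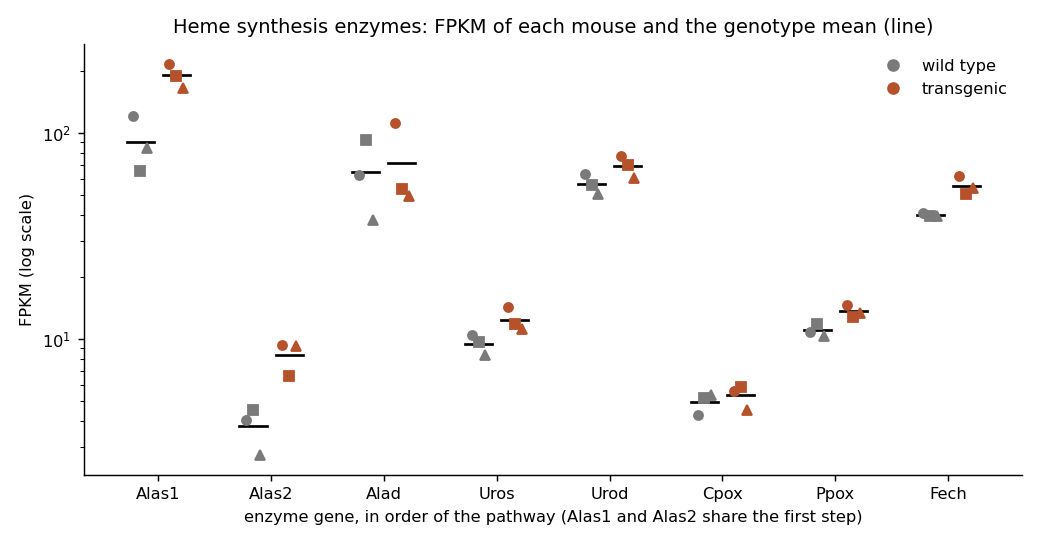
FPKM (log axis) of 8 heme synthesis enzymes in pathway order, with 1 point per mouse (circle, square and triangle for replicates 1, 2 and 3) and a line at each genotype mean. The genotypes do not overlap at *Alas1*, *Alas2*, *Uros*, *Ppox* and *Fech*, of which *Uros* and *Ppox* did not pass the threshold, they overlap at *Alad*, *Urod* and *Cpox*, and *Cpox* has the lowest transgenic mean of the 8.

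Whether *Alas1* and *Fech* differed in the size of their rise was asked within each mouse. The log2 ratio of *Alas1* to *Fech* was 1.8, 1.88 and 1.59 in transgenic mice, against 1.55, 0.71 and 1.08 in wild-type mice. Transgenic replicate 3 was only just above wild-type replicate 1. The difference was 0.65 (exact permutation p = 0.1, adjusted p = 0.133), with a range of 0.45 to 0.86 when each mouse was left out. This is the smallest p the design allows and does not pass a threshold of 0.05.

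*Hmox1* encodes heme oxygenase 1, the inducible enzyme that opens heme to biliverdin, iron and carbon monoxide, and lies on chr8:75093618-75100593. *Hmox1* had 21.8, 31.4 and 29.0 FPKM in the transgenic mice and 34.5, 32.0 and 36.3 FPKM in the wild-type mice. All transgenic values were lower, but transgenic replicate 2 was within 1 FPKM of wild-type replicate 2. The means were 27.4 ± 5.03 and 34.3 ± 2.16 FPKM (SD, n = 3 each), with a log2 fold change of -0.33 (SE 0.14, 95% interval -0.66 to 0.00027, limma adjusted p = 0.138, exact permutation p = 0.1). Its adjusted p stayed between 0.0778 and 0.307 over the 14 alternatives. *Hmox2*, the constitutive isoform, had 71.5 ± 6.46 and 66.8 ± 3.24 FPKM (SD, n = 3 each; log2 fold change 0.09, limma adjusted p = 0.495).

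The message of a synthesis enzyme was also set against that of a breakdown enzyme, with neither process itself measured. The log2 ratio of *Alas1* to *Hmox1* was 3.26, 2.55 and 2.46 in transgenic mice, against 1.79, 1.01 and 1.20 in wild-type mice. The genotypes did not overlap, with a difference of 1.43 (exact permutation p = 0.1, adjusted p = 0.133) that ran from 1.18 to 1.66 with single mice left out.

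Per length, the order of the 9 messages was *Fth1*, *Trf*, *Alas1*, *Urod*, *Fech* and *Hmox1* in both genotypes. Below these, *Tfrc*, *Slc40a1* and *Cpox* followed in the transgenic mice and *Cpox*, *Tfrc* and *Slc40a1* in the wild-type mice. In transgenic iWAT the ranges of *Urod* and *Fech*, of *Tfrc* and *Slc40a1*, and of *Slc40a1* and *Cpox* overlapped. Within each transgenic mouse, *Urod* was still above *Fech*, and *Tfrc* above *Slc40a1*. *Slc40a1* was below *Cpox* in transgenic replicate 2 and above it in replicates 1 and 3. In wild-type iWAT only *Cpox* and *Tfrc* overlapped. *Cpox* was thus the lowest of the 9 messages on average in transgenic iWAT and *Slc40a1* the lowest in wild-type iWAT.

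Iron-handling genes and heme genes are also expressed by cells other than adipocytes. In a whole fat pad, fewer cells of a type and less RNA per cell cannot be told apart. Macrophage markers, relevant to *Slc40a1*, *Hmox1* and *Fth1*, summed to between 369 and 523 FPKM in the transgenic mice and between 769 and 976 FPKM in the wild-type mice over 9 loci. By limma, 5 of these 9 were called lower and 0 higher (7 and 0 at an unadjusted p under 0.05). Their median log2 fold change was -0.55, and none was at 0. Of all tested loci, 7.03% were called lower, and 1963 of 11692 were lower at an unadjusted p under 0.05. In the transgenic samples, where macrophage markers were lower, *Slc40a1* and *Fth1* had higher values and *Hmox1* and *Trf* lower ones. Within a genotype the order was mixed. Transgenic replicate 2 had the highest transgenic macrophage sum, *Trf* and *Hmox1* and the lowest *Slc40a1*. Wild-type replicate 3 had the highest wild-type sum and *Hmox1*, but the lowest wild-type *Trf*. The part of macrophage RNA in these values was not tested.

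Erythroid loci summed to between 1139 and 1357 FPKM in the transgenic mice and between 526 and 962 FPKM in the wild-type mice, nearly all of it globin RNA. The locus of *Hbb* had 1020.5 ± 86.5 and 614 ± 191 FPKM (SD, n = 3 each; log2 fold change 0.77, limma adjusted p = 0.0532). The higher of the *Hba* loci had 222 ± 38.4 and 128 ± 54.9 FPKM (limma adjusted p = 0.104). *Slc4a1*, *Epb42* and *Klf1*, which mark red cell precursors, were too low to be tested, at 0.239 FPKM or less in every sample, with *Epb42* listed at 0 in wild-type replicates 1 and 2. Of 3 erythroid loci tested, only *Alas2* was called higher. At an unadjusted p under 0.05, limma put all 3 higher, beside 2267 of the 11692 tested loci. Summed erythroid RNA was higher in the transgenic samples, as were *Alas1*, *Alas2*, *Fech* and *Tfrc*. Within a genotype the order was mixed. Wild-type replicate 2 had the highest wild-type erythroid sum and *Alas2*, but the lowest wild-type *Alas1*, *Fech* and *Tfrc*. Transgenic replicate 2 had the lowest transgenic sum, *Alas2*, *Fech* and *Tfrc*, while transgenic *Alas1* was lowest in replicate 3, which had the highest sum. The part of erythroid RNA in these genes was not tested.

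Brown adipocyte markers summed to 3058 to 4306 FPKM in the transgenic mice and 184 to 313 FPKM in the wild-type mice, with *Ucp1*, *Cidea*, *Elovl3* and *Cox7a1* called higher and *Dio2* not. Adipocyte markers common to both kinds of fat summed to 28128 to 33318 FPKM and 23843 to 29519 FPKM, with 1 of 5 called lower. Most of this sum is *Fabp4*, which averaged 26591 and 21945 FPKM and was not called. The 1 called lower was *Adipoq*, at 1363 ± 89.0 and 2481 ± 415 FPKM (SD, limma adjusted p = 0.0172). Endothelial markers had 140 to 148 and 124 to 134 FPKM (2 of 5 higher), lymphocyte markers 151 to 225 and 223 to 333 FPKM (1 of 5 lower), and epithelial markers 76.0 to 153 and 115 to 177 FPKM. Limma called 0 of 5 epithelial and 0 of 7 muscle loci, with 1 of each at an unadjusted p under 0.05.

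**Figure D3:**
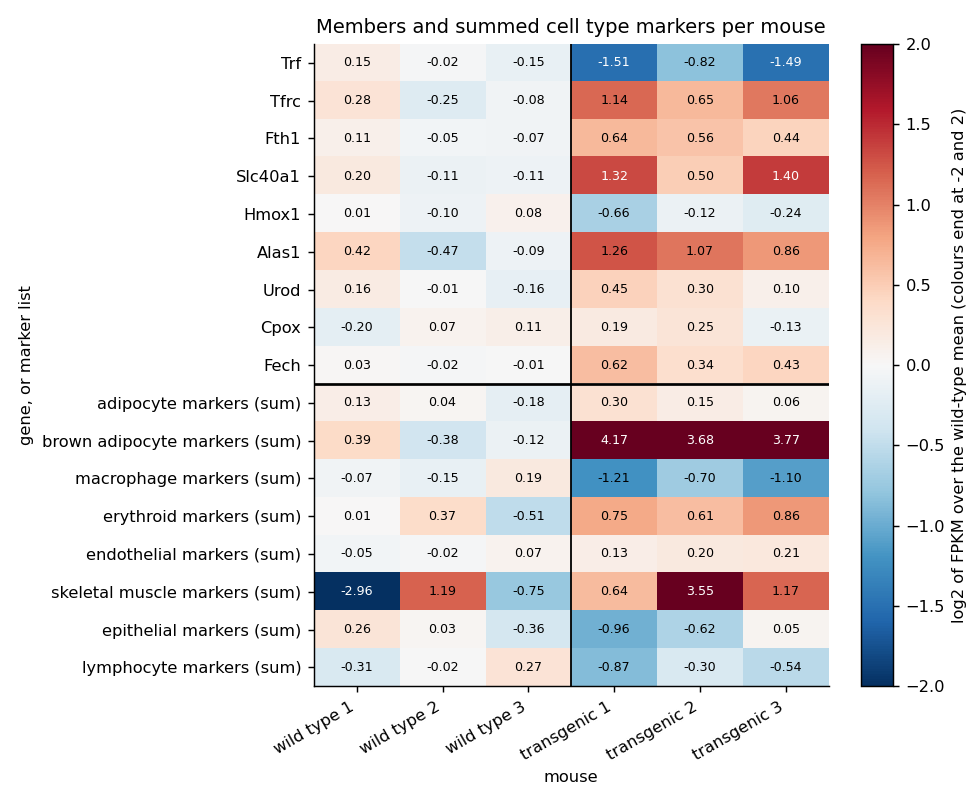
Log2 of FPKM over the wild-type mean for the 9 genes (upper rows) and for summed cell type markers (lower rows) in each of the 6 mice (columns), with colors that end at -2 and 2 and the value printed in each cell. *Trf* is at -1.51, -0.82 and -1.49 in the transgenic mice, where macrophage markers are at -1.21, -0.70 and -1.10, brown adipocyte markers are at 3.68 or more, and muscle markers peak in transgenic replicate 2 at 3.55.

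The 9 genes were also placed within 6 lists of 77 iron and heme genes, of which 64 were tested. Of the 64, 20 were higher and 2 were lower (31.2% and 3.12%, beside 11.6% and 7.03% of all tested loci), and the median log2 fold change was 0.23. Without the 9 genes, 16 of 55 were higher and 1 was lower, with a median of 0.18. The count of 20 fell to 12 without transgenic replicate 1, to 9 without transgenic replicate 3, to 11 without wild-type replicate 2 and to 9 without wild-type replicate 3. The genotypes did not overlap for 35 of the 64, or 54.7%, against 42.9% of all tested loci.

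*Tfrc* and *Trf* were the only genes called among 10 of iron uptake, and the median of that list was -0.16. The metal importer *Slc11a2* had a log2 fold change of 0.33 (limma adjusted p = 0.0809) and *Slc39a8* one of -0.58 (adjusted p = 0.083). Among 5 genes of storage and iron chaperones, with *Fth1* the furthest from 0, limma called 0 in either direction (1 at an unadjusted p under 0.05), and their median was 0.01.

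*Slc40a1* was the only one of 9 tested genes of export and regulation called higher, and *Heph* the only one called lower. *Heph* encodes hephaestin, a membrane-bound copper oxidase that works beside ferroportin by oxidizing the iron it releases. *Heph* had 6.96, 4.63 and 5.72 FPKM in the transgenic mice and 20.1, 21.2 and 20.2 FPKM in the wild-type mice. The genotypes were far apart, with means of 5.77 ± 1.17 and 20.5 ± 0.640 FPKM (SD, n = 3 each). Its log2 fold change of -1.68 (SE 0.13, limma adjusted p = 0.000665) was the largest of the 64 in either direction and was called in all 14 alternatives. *Slc40a1* and *Heph* were thus called in opposite directions. *Cp*, the circulating oxidase ceruloplasmin, had a log2 fold change of -0.28 (limma adjusted p = 0.0834). The iron regulatory proteins, encoded by *Aco1* and *Ireb2*, had log2 fold changes of -0.16 and 0.03 (limma adjusted p = 0.208 and 0.814).

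*Hmox1* stood in a list of 12 tested genes of heme breakdown, transport and modification. Of these, limma called 6 higher and 0 lower (7 and 0 at an unadjusted p under 0.05), with a median of 0.41. Over all tested loci, 11.6% were called higher and 7.03% lower (2267 and 1963 of 11692 at an unadjusted p under 0.05). The largest rises were in *Cox10*, which makes heme o for cytochrome c oxidase, *Hccs*, which attaches heme to cytochrome c, *Blvra*, which reduces biliverdin, and *Abcb10*, a mitochondrial transporter. Their log2 fold changes were 0.74, 0.54, 0.53 and 0.49 (limma adjusted p = 0.00262, 0.0234, 0.0301 and 0.0231). *Cox10* had 13.1 ± 0.499 against 7.49 ± 0.720 FPKM (SD, n = 3 each) and was called in all 14 alternatives. *Hmox1* was the lowest of the 12 by log2 fold change. The count of 6 fell to between 1 and 3 without any 1 of transgenic replicates 1 and 3 and wild-type replicates 1, 2 and 3, with 1 left without wild-type replicate 3.

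Besides heme, iron that reaches mitochondria is used for iron-sulfur clusters. Of 20 genes of mitochondrial iron and iron-sulfur cluster assembly, limma called 9 higher and 0 lower (13 and 0 at an unadjusted p under 0.05). Their median log2 fold change was 0.31. The shares over all tested loci were 11.6% higher and 7.03% lower (2267 and 1963 of 11692 at an unadjusted p under 0.05). The 4 largest were *Bola3*, *Isca2*, *Isca1* and *Hspa9*, assembly factors and a chaperone, with log2 fold changes of 1.12, 0.94, 0.93 and 0.81 (limma adjusted p = 0.00165, 0.0122, 0.00489 and 0.0122). *Bola3* had 655 ± 65.6 against 301 ± 15.7 FPKM (SD, n = 3 each). The locus of *Isca1* carries 3 gene symbols. The mitochondrial iron importers *Slc25a37* and *Slc25a28* had log2 fold changes of 0.005 and -0.20 (limma adjusted p = 0.975 and 0.192).

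**Figure D4:**
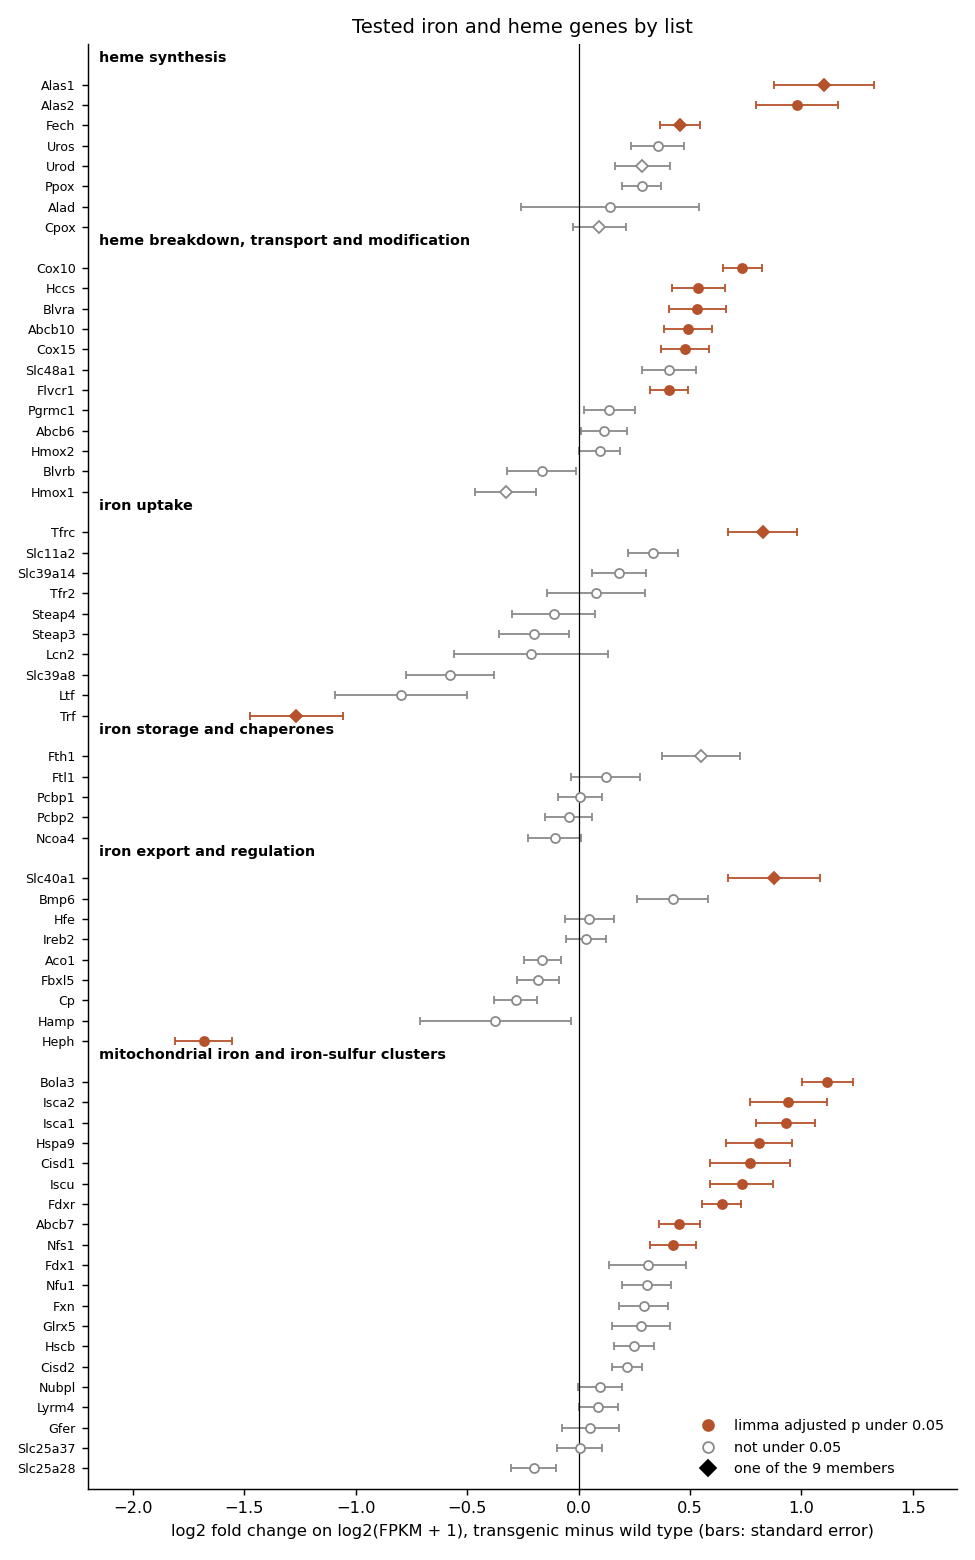
Log2 fold change (transgenic minus wild type, on log2(FPKM + 1), bars for the standard error) of the 64 tested iron and heme genes in 6 lists, with filled symbols for a limma adjusted p under 0.05 and diamonds for the 9 genes. *Heph* at -1.68 and *Trf* at -1.27 are the lowest, *Bola3* at 1.12 and *Alas1* at 1.10 the highest, and the mitochondrial list holds 9 of the 20 genes called higher.

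For *Trf* and *Alas1*, the loci with the most similar pattern over the 6 samples were looked up, by Pearson's r of log2(FPKM + 1) across 11691 other loci. Those nearest to *Trf* were *Rps9*, *Retnla* and *Zfp407* (r = 0.997, 0.995 and 0.995), and 743 loci had an r over 0.9. Those nearest to *Alas1* were *Cbr3*, *Cbr1* and *Mpp2* (r = 0.994, 0.993 and 0.991), with 808 loci over 0.9. All 6 samples share the genotype contrast, so any locus that differs between the genotypes scores high, and these values are a description.

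**Figure D5:**
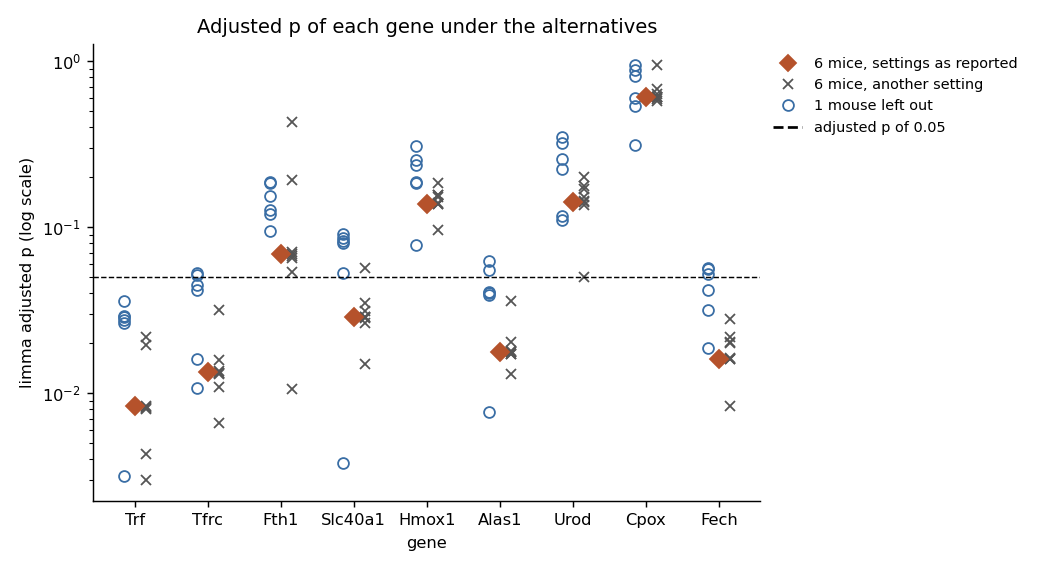
Limma adjusted p (log axis) of the 9 genes with the 6 mice and settings as reported (diamonds), under 8 other settings that kept all mice (crosses) and with 1 mouse left out (circles), with a dashed line at 0.05. *Trf* stays below the line throughout, *Tfrc*, *Alas1*, *Fech* and *Slc40a1* cross it in 2, 2, 3 and 6 of the 14 alternatives, *Fth1* falls below it in 1, and *Hmox1*, *Urod* and *Cpox* stay above it.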

How the data were processed

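RNA-Seq of iWAT from 3 transgenic and 3 wild-type mice was analysed. The authors extracted total RNA with TRIzol, made TruSeq v2 libraries, which do not mark strand, mapped single-end reads to mm10 with TopHat, and deposited FPKM values from Cufflinks for each gene and sample. The submitters' processing notes name CASAVA 1.8.2, TopHat2 2.0.9, Bowtie2 2.1.0 and Cufflinks 2.2.1. The options and the annotation are not given in the sources used here, so how reads of pseudogenes and overlapping genes were shared is not known.

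From the deposited FPKM, log2(FPKM + 1) was tested with limma 3.58.1 in R 4.3.3 (eBayes with trend, two-sided, Benjamini-Hochberg over all tested loci) at the 11692 loci where the mean of 1 genotype or both exceeded 1 FPKM, a procedure first tested on simulated data. Ratios and single genes were tested by exact permutation over 20 arrangements. Read counts were not used. The 9 genes, the 6 lists and the tests were chosen with earlier results of these data known. Text names all 9 genes, 8 heme synthesis enzymes, up to 4 called genes per list and direction with the largest log2 fold change, and 3 loci most like *Trf* and *Alas1*. *Ftl1*, *Hmox2*, *Cp*, *Aco1*, *Ireb2*, *Slc11a2*, *Slc39a8*, *Slc25a37* and *Slc25a28* were added for their role after their values were seen. Of 77 listed symbols 72 had a row, 2 of them under a synonym, and the other 5 were not analysed here. Some genes of the pathway and of the marker lists are not reported here. Loci were written 1-based. Of the 9 genes, 5 had a promoter window in the RefSeq table, which holds GRCm38.p6. Python 3.11.15 and matplotlib 3.10.9 drew the figures. The alternatives were a pseudocount of 0.1, no filter, a filter on the mean over the 6 samples, array quality weights, quantile normalization, eBayes without trend, median-ratio scaling, the replicate block and each mouse left out, and, for the counts of calls only, an adjusted p under 0.01.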

Additional observations from a re-analysis of the deposited data

How the results depend on the processing

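No direction of the 9 genes was reversed in the alternatives run. With eBayes without trend *Fth1* passed the threshold (0.55, adjusted p = 0.0106), and without a filter *Slc40a1* lost it (0.88, adjusted p = 0.0567). Both log2 fold changes were those of the reported settings, so only the p-values moved, for *Fth1* with the variance trend as the only change. Why the trend and the filter moved them was not tested. At an adjusted p under 0.01, 569 of all loci were higher and 199 lower, and 4 of the 64 iron and heme genes were higher, and *Trf* was the only one of the 9 genes still called (adjusted p = 0.00843). With quantile normalization 4 of the 64 were lower, and without a filter 4 of a larger set of listed genes, which includes those under the filter. Quantile normalization also moved the split over all loci from 1352 higher and 822 lower to 1300 and 1083.

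With each mouse left out, the counts ran from 780 to 1295 higher and from 329 to 906 lower over all loci, and from 9 to 18 higher and 2 to 3 lower over the 64 genes. Log2 fold changes ran from -1.49 to -1.15 for *Trf*, 0.73 to 0.96 for *Tfrc*, 0.50 to 0.60 for *Fth1*, 0.74 to 1.12 for *Slc40a1*, -0.43 to -0.18 for *Hmox1*, 0.89 to 1.33 for *Alas1*, 0.20 to 0.38 for *Urod*, 0.013 to 0.19 for *Cpox* and 0.38 to 0.51 for *Fech*. Differences of log2 ratios ran from 0.45 to 0.86 (*Alas1* to *Fech*), 1.18 to 1.66 (*Alas1* to *Hmox1*), 1.89 to 2.45 (*Tfrc* to *Trf*) and 0.17 to 0.42 (*Tfrc* to *Fth1*).

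Deviations from the genotype mean correlated weakly between samples with the same replicate number (0.0129, 0.0344 and 0.0701). Pairs with different numbers had correlations from -0.186 to 0.135. With 3 samples per genotype, these values cannot decide whether the numbers pair the mice. With the replicate block 1230 loci were higher and 656 lower, 19 and 2 of the 64 genes were called, and the calls of the 9 genes were the same (*Trf* adjusted p = 0.0195, *Alas1* 0.0178, *Fech* 0.0279, *Tfrc* 0.0109, *Slc40a1* 0.0349). By the estimate of relative depth, transgenic replicates 1 and 3 were the shallowest samples, at 0.713 and 0.693. If so, the low FPKM of *Cpox*, *Slc40a1* and *Tfrc* is less precise in them.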
